A study of Homo sapiens with 12 samples.

Results

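The mRNAs of the pro-survival BCL2 family, BCL2, BCL2L1, BCL2L2, MCL1 and BCL2A1, were followed across 12 RNA-seq libraries of WI-38 cells. These 5 genes were picked by name among the 57773 gene identifiers of the count files, and all of them had enough counts to be among the 21518 genes tested. WI-38 is a line of diploid human lung fibroblasts. Each of 4 groups held 3 libraries, all made on day 8 from cells that had received a pool of siRNAs at 25 nM. Proliferating cells had a non-targeting pool (siCtrl) and vehicle (DMSO). The senescent groups were kept in 50 µM etoposide, a topoisomerase poison that breaks DNA, and had siCtrl, a pool against NTRK2 mRNA (siNTRK2) or a pool against BDNF mRNA (siBDNF). NTRK2 encodes the receptor TrkB and BDNF encodes its ligand, so the siRNA groups ask how the loss of either bears on the survival genes of senescent cells. No proliferating cells with siNTRK2 or siBDNF were analysed here, and each target was silenced with a single pool.

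Members of this family sit on the outer mitochondrial membrane, where each holds a groove that binds the BH3 helix of pro-apoptotic relatives. By binding the BH3-only proteins and the pore-forming effectors BAX and BAK they keep cytochrome c inside mitochondria, and apoptosis starts when they are outnumbered. Senescent fibroblasts are known for resisting apoptosis, and drugs that fill the groove of BCL-xL, BCL-w or BCL-2 kill many of them. The proteins are named differently from the genes. BCL2 encodes BCL-2, BCL2L1 encodes BCL-xL and the shorter pro-apoptotic BCL-xS from the same gene, BCL2L2 encodes BCL-w, MCL1 encodes the short-lived protein MCL-1, and BCL2A1 encodes BFL-1, which is best known in blood cells. Counts per gene do not separate BCL-xL from BCL-xS transcripts.

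In the GRCh37 annotation BCL2 (ENSG00000171791) spans bases 60790579 to 60987361 of chromosome 18 (minus strand). BCL2L1 (ENSG00000171552) spans 30252255 to 30311792 of chromosome 20 (minus), and BCL2L2 (ENSG00000129473) 23767999 to 23780960 of chromosome 14 (plus). MCL1 (ENSG00000143384) spans 150533371 to 150552214 of chromosome 1 (minus), and BCL2A1 (ENSG00000140379) 80253234 to 80263538 of chromosome 15 (minus). The sequence just upstream of the annotated starts is shown for BCL2 and BCL2L1, the members with the largest fall and the largest rise in senescence. Each stretch is the 250 bases before a RefSeq start site on GRCh38.p14, a later build than that of the counts, and is written 5′ to 3′ on the minus strand with matches to TATAAA in capitals.
BCL2, chr18:63319770-63320019: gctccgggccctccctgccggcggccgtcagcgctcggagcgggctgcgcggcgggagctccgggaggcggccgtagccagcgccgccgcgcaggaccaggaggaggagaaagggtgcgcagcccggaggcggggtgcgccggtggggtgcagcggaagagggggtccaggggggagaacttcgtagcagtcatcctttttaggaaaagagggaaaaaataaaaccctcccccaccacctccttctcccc
BCL2L1, farther start site, chr20:31723964-31724213: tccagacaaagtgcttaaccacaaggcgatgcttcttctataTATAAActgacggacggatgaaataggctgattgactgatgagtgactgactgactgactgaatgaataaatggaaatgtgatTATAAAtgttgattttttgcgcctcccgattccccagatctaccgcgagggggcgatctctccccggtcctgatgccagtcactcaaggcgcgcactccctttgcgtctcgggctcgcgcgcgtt
BCL2L1, nearer start site, chr20:31722869-31723118: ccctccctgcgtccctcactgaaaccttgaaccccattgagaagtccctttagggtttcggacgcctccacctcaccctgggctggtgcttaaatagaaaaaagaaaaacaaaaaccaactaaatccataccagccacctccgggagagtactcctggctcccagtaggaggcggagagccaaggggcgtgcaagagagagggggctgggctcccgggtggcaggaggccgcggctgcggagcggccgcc
The BCL2 stretch is 70% G or C and the BCL2L1 stretches are 50% and 60.4%, against a median of 58% over 35116 such windows. Both strands were searched for the GC box (GGGCGG), the CCAAT box (the letters of its name), the TATA box (TATAAA) and the cAMP response element (TGACGTCA), none of which overlapped another in these windows. The farther BCL2L1 window held the TATA box letters at 2 places, whose first bases are at -208 and -125 from the start site, and the other letters were found in none of the 3 windows. Of all windows, 42.6% held the GC box, 32% the CCAAT box, 10.7% the TATA box and 1.65% the cAMP response element. These matches describe letters and no binding was measured.

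The libraries held between 31567912 and 72328151 counts, with 3 counts taken as the limit of detection. All 8 fibroblast markers were detected in every group. Their summed level was 11190 to 11800 TPM (counts per exon length and library total) in proliferating cells and 7784 to 8660, 9618 to 10910 and 8918 to 9276 TPM in senescent cells with siCtrl, siNTRK2 and siBDNF. With TMM scaling (edgeR), 6 of the 8 fell and 1 rose in senescence, 5 rose and 1 fell with siNTRK2, 1 rose and 5 fell with siBDNF, and 7 were higher with siNTRK2 than with siBDNF. All 4 epithelial markers stayed under 1 CPM (counts scaled to library size after TMM adjustment), and the pan-leukocyte gene PTPRC went from 0 counts in each proliferating library to between 30 and 71 counts in the senescent ones. The macrophage-associated lysosomal gene CD68 measured 53.0 ± 3.48 CPM (SD, n = 3) in proliferating cells and 109 ± 3.51, 77.5 ± 1.87 and 180 ± 1.83 (SD, n = 3 each) in senescent cells with siCtrl, siNTRK2 and siBDNF. The summed level of the 6 haematopoietic markers was 68.1 to 72.7, 133 to 149, 103 to 112 and 255 to 264 TPM in these 4 groups, with 4 or 5 of the 6 genes under 1 CPM in each group. CD68 and the fibroblast markers thus moved with the groups, and their part in the results was not tested. The targeted mRNAs followed the labels. NTRK2 had 11, 1 and 1 counts in proliferating cells, 7, 15 and 10 with siCtrl in senescence, 0 in each siNTRK2 library and 10, 23 and 29 with siBDNF. NTRK2 mRNA was thus near the limit of detection, at most 0.42 CPM in any library, and its loss with siNTRK2 rests on few counts. BDNF mRNA differed by a log2 fold change of -1.79 with siBDNF (adjusted p = 1.72e-18 in edgeR's quasi-likelihood fit) and by 0.33 with siNTRK2 (adjusted p = 8.35e-06 in the same fit). In senescent cells with siCtrl the proliferation gene MKI67 fell by 3.68 on the log2 scale and CDKN1A, encoding the cell cycle inhibitor p21, rose by 1.62 (adjusted p = 2.86e-16 and 1.98e-20, edgeR). The senescent groups were not alike in such genes. With siNTRK2, CDKN1A differed from siCtrl by -0.50, TOP2A by 1.11, LMNB1 by 0.62 and HMGB2 by 0.31, all past the test. For CDKN1A the study's RT-qPCR, relative to ACTB mRNA, showed no change after silencing TrkB or BDNF. TOP2A, LMNB1 and HMGB2 had fallen in senescence with siCtrl. CDKN2A, encoding p16, had risen there and was 0.21 higher again with siNTRK2. With siBDNF none of CDKN1A, TOP2A, LMNB1, HMGB2 and CDKN2A passed. MKI67 did, at 0.91 above siCtrl (adjusted p = 0.000553, edgeR), and it was 1.72 higher with siNTRK2 (adjusted p = 4.33e-08, edgeR). The part of these differences in the results was not tested.

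MCL1 and BCL2L1 carried most of the family's mRNA. Levels of different genes were compared within a library as TPM, counts divided by the length of all annotated exons and by the library's per-length total. MCL1 averaged 123 TPM and BCL2L1 117 TPM over the 12 libraries, above 94.4% and 94.1% of 20738 tested genes of known length. BCL2L2 averaged 31.9 TPM and stood above 80% of them. BCL2A1 at 1.120 TPM and BCL2 at 0.477 TPM stood above 25.1% and 15.9%. In proliferating cells MCL1 made up 48.6% ± 2.13 of the summed family level, BCL2L1 37.4% ± 2.28, BCL2L2 13.02% ± 0.403, BCL2 0.511% ± 0.0527 and BCL2A1 0.419% ± 0.204 (SD, n = 3).

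The balance between MCL1 and BCL2L1 differed between groups. The MCL1 level was 1.16 to 1.41 times that of BCL2L1 in the proliferating libraries, 0.860 to 0.916 times in senescent libraries with siCtrl, 0.952 to 0.979 times with siNTRK2 and 1.15 to 1.16 times with siBDNF. BCL2L1 was therefore the more abundant per length in senescent cells with siCtrl or siNTRK2, and MCL1 was in the others. With siNTRK2 the margin was narrow. ADAMTSL4-AS1 shares 5.27% of the MCL1 exonic bases on the same strand, so that order may depend on how shared reads were assigned. With the length of the Ensembl canonical transcript in place of all exons, a choice made after the data were seen, the proliferating ratio was 1.120 to 1.36, the siCtrl senescent ratio 0.831 to 0.885, the siNTRK2 ratio 0.920 to 0.946 and the siBDNF ratio 1.11 to 1.13. BCL2L2 kept 12.9% ± 0.880 of the family level in senescent cells with siCtrl and 12.3% ± 0.795 with siNTRK2, and held 9.53% ± 1.02 with siBDNF (SD, n = 3 each). The 3 siBDNF libraries lay between 8.37% and 10.3%, all below the 12.1% to 13.8% of the siCtrl senescent libraries. A share also depends on the other members. From siCtrl to siBDNF the family sum went from 265.1 to 349.5 TPM and MCL1 from 107.5 to 168.8 TPM. BCL2L2 itself measured 34.2 and 33.3 TPM there, so its smaller share is not by itself a loss of BCL2L2 mRNA. BCL2 went from 0.511% of the family to 0.111% ± 0.00804 in senescent cells with siCtrl.

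**Figure D1:**
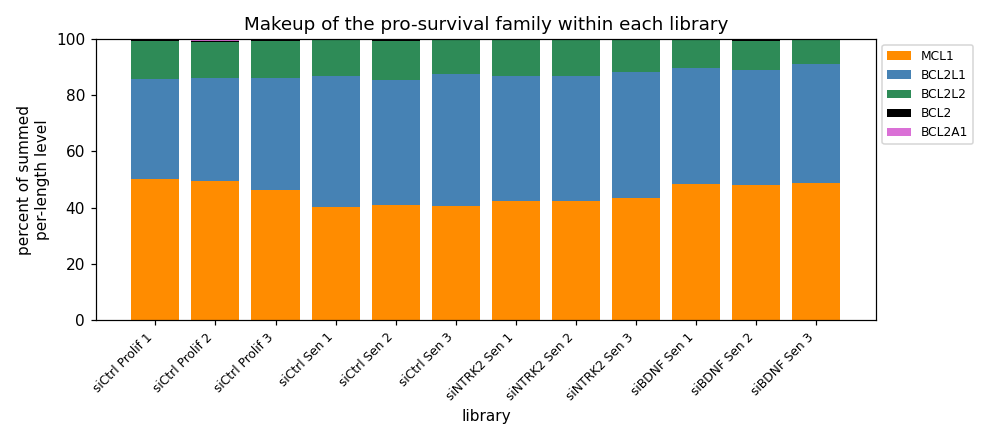
Share of each member (percent, vertical axis) in the summed per-length level of the 5 genes, for each of the 12 libraries. MCL1 and BCL2L1 fill most of each bar, and the BCL2L2 band is thinnest in the siBDNF libraries, at 8.37% to 10.3%. The BCL2 and BCL2A1 shares, each under 1%, are barely visible at the top.

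Senescence moved 4 of the 5 members. With siCtrl, BCL2L1, BCL2L2 and MCL1 mRNAs rose and BCL2 mRNA fell, while BCL2A1 did not pass the test. In the same comparison 58.1% of all genes tested passed an adjusted p of 0.05, 29.8% higher and 28.3% lower, so 4 calls of 5 are not far from that background. The sizes differed more: the median absolute log2 fold change of the called genes was 0.57, exceeded by BCL2 at -1.68 and BCL2L1 at 0.82 and not by BCL2L2 at 0.51 or MCL1 at 0.26. BCL2 alone among the members also passed the study's second criterion of a log2 fold change over 1 in size, which 16.7% of genes met. In bulk RNA a change in the share of cells that make an mRNA and a change in its amount per cell cannot be told apart.

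**Figure D2:**
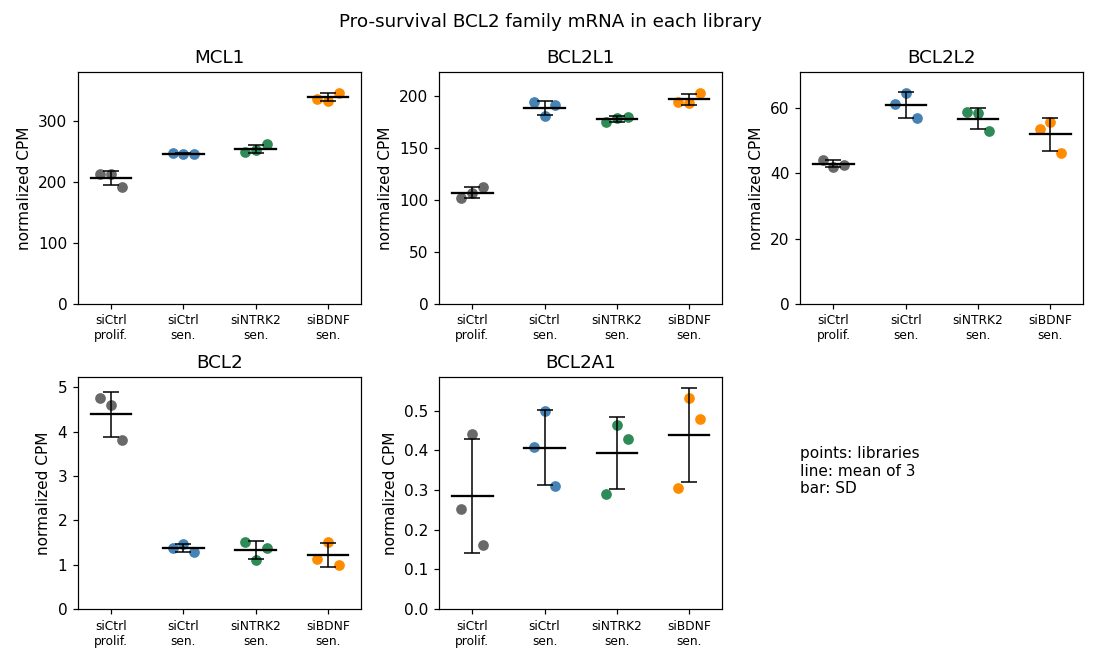
Normalized CPM (vertical axes, from 0) of each member in the 3 libraries of each group, with the group mean as a line and the SD as a bar. BCL2 is low in all 9 senescent libraries, and MCL1 is highest in the 3 siBDNF libraries at 334 to 346 CPM.

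BCL2, the founding member of the family, had 265, 323 and 141 counts in the proliferating libraries, or 4.75, 4.60 and 3.82 CPM. In senescent cells with siCtrl it had 77, 85 and 74 counts, or 1.37, 1.46 and 1.28 CPM. The groups did not overlap, and BCL2 mRNA fell by 1.68 on the log2 scale (standard error, SE, 0.180, 95% interval -2.05 to -1.31, adjusted p = 1.42e-08, edgeR). The 9 senescent libraries lay between 0.990 and 1.52 CPM whatever the siRNA. Its difference was -0.03 with siNTRK2 (interval -0.43 to 0.37) and -0.17 with siBDNF (interval -0.57 to 0.24), and neither passed the test. Leaving out 1 library at a time gave -0.14 to 0.09 with siNTRK2 and -0.39 to -0.02 with siBDNF, with no call. MKI67 rose by 1.72 with siNTRK2 and by 0.91 with siBDNF over the same libraries (adjusted p = 4.33e-08 and 0.000553, edgeR).

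BCL2L1 measured 102, 107 and 112 CPM in the proliferating libraries. In senescent cells with siCtrl it measured 194, 181 and 191 CPM. Every senescent library was above every proliferating one, and the log2 fold change was 0.82 (SE 0.0462, interval 0.73 to 0.92, adjusted p = 7.73e-14, edgeR). With siNTRK2 the values were 175, 179 and 180.4 CPM, all just below the siCtrl senescent libraries, with a difference of -0.08 that did not pass the test (interval -0.18 to 0.01, adjusted p = 0.209, edgeR). With siBDNF they were 195, 194 and 203 CPM, overlapping siCtrl, with a difference of 0.06 (interval -0.03 to 0.16, adjusted p = 0.398, edgeR). That last value depends on scaling. It was 0.12 with library totals alone (adjusted p = 0.0375, edgeR), and on the TPM scale BCL2L1 went from 122 ± 1.07 to 146 ± 3.25 (SD, n = 3). TPM also rose with siBDNF for BAK1, from 47.8 to 55.2, although BAK1 was flat at 39.0 and 39.4 CPM. The TPM change is thus not specific to BCL2L1. The antisense gene BCL2L1-AS1 had at most 4 counts in any library, and ABALON, which covers 41.3% of the BCL2L1 exonic bases on the opposite strand, was not analysed here.

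MCL1 measured 213, 212 and 193 CPM in the proliferating libraries. In senescent cells with siCtrl it was 248, 246 and 246 CPM, above all of them. The rise was the smallest of the 3 (log2 fold change 0.26, SE 0.0445, interval 0.17 to 0.35, adjusted p = 2.04e-05, edgeR). With siNTRK2 it was 249.6, 253 and 262 CPM, all above the siCtrl senescent libraries, but the difference of 0.05 did not pass the test (interval -0.05 to 0.14, adjusted p = 0.516, edgeR). With siBDNF it reached 336, 334 and 346 CPM, above every library of the other groups. The difference from siCtrl was 0.46 (SE 0.0443, interval 0.37 to 0.55, adjusted p = 4.73e-08, edgeR), and from proliferating cells it was 0.72 (SE 0.0446, adjusted p = 5.01e-13, edgeR). Among the exonic overlaps of MCL1, ADAMTSL4-AS1 on the same strand had at most 8 counts.

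BCL2L2 measured 44.1, 42.0 and 42.6 CPM in the proliferating libraries. In senescent cells with siCtrl it was 61.3, 64.6 and 56.8 CPM, and the groups did not overlap. The log2 fold change was 0.51 (SE 0.0649, interval 0.37 to 0.64, adjusted p = 3.06e-07, edgeR). With siNTRK2 it was 58.6, 58.5 and 53.1 CPM, overlapping siCtrl, a difference of -0.10 that did not pass the test (interval -0.23 to 0.03, adjusted p = 0.286, edgeR). That difference was -0.05 without siCtrl senescent replicate 2, -0.06 without siNTRK2 replicate 3 and 0.03 when the overlapping readthrough gene BCL2L2-PABPN1 was added, none past the test. With siBDNF it was 53.7, 55.8 and 46.3 CPM, below every siCtrl senescent library. The difference was -0.23 (SE 0.0644, interval -0.36 to -0.10, adjusted p = 0.0110, edgeR), and BCL2L2 still stood 0.27 above proliferating cells (adjusted p = 0.000852, edgeR). The siBDNF call was lost without siBDNF replicate 3 (-0.15, adjusted p = 0.123) or without siCtrl senescent replicate 2 (-0.18, adjusted p = 0.0666), and with library totals alone (-0.17, adjusted p = 0.0755). Relative to ACTB mRNA, which itself fell by 0.26 with siBDNF, the difference was 0.03. On the TPM scale BCL2L2 measured 34.2 ± 3.18 with siCtrl and 33.3 ± 3.52 with siBDNF (SD, n = 3). Both scales also moved other genes up with siBDNF. Relative to ACTB mRNA the median of all genes was 0.27 higher, and BAK1, flat in CPM, went from 47.8 to 55.2 TPM. The study singled BCL2L2 out with these libraries, so its direction here is not independent evidence. By RT-qPCR relative to ACTB mRNA the study also reported lower BCL2L2 mRNA after silencing either gene. Western blots there showed the same direction for BCL-w. It further reported lower BCL2L2 mRNA with BDNF-blocking antibodies and with an inhibitor of the kinase ERK5. Those assays are separate from these libraries, in which the siNTRK2 difference did not pass.

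BCL2A1 was near the limit of detection, with 14, 31 and 6 counts in the proliferating libraries. It had 23, 29 and 18 counts in senescence with siCtrl, 18, 23 and 23 with siNTRK2 and 10, 36 and 33 with siBDNF. The groups overlapped in every comparison. Its log2 fold change in senescence was 0.45 (SE 0.440), with an interval from -0.46 to 1.36 that takes in both a fall and a rise. At these counts the estimate was imprecise. The value was 0.92 without proliferating replicate 2, 0.21 without proliferating replicate 3, 0.26 without siCtrl senescent replicate 2 and 0.99 relative to ACTB mRNA, and it passed the test in none of these (adjusted p from 0.0550 to 0.720, edgeR).

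The counts of BCL2L2 depend on how reads were assigned to an overlapping gene. BCL2L2-PABPN1 is a readthrough gene on the same strand, from 23776042 to 23795384 of chromosome 14, that joins BCL2L2 to PABPN1, the nuclear poly(A)-binding protein gene downstream. In the annotation used here for exon lengths, 815 of its 2370 exonic bases are shared with BCL2L2, 1447 with PABPN1 and 108 with neither. The exon models used for the counts may differ. The shared bases are 16.8% of those of BCL2L2 and 39.3% of those of PABPN1. In the deposited tables it measured 62.8, 62.7 and 63.3 CPM in the proliferating libraries, more than BCL2L2 itself.

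The readthrough gene moved the other way from BCL2L2 in senescence. In senescent cells with siCtrl it was 45.6, 53.0 and 46.5 CPM, a fall of 0.38 on the log2 scale (adjusted p = 3.27e-06, edgeR), and PABPN1 fell by 0.64 (adjusted p = 1.87e-10, edgeR). With siNTRK2 the readthrough gene rose by 0.18 and PABPN1 by 0.26 over siCtrl (adjusted p = 0.0226 and 0.00102, edgeR), while BCL2L2 had a difference of -0.10. With siBDNF it had 49.1, 50.6 and 45.6 CPM, overlapping the siCtrl libraries. When the counts of BCL2L2 and BCL2L2-PABPN1 were summed, the senescence difference was 0.05 (adjusted p = 0.495, edgeR) and the siBDNF difference -0.12 (adjusted p = 0.123, edgeR), so both BCL2L2 calls were lost. The sum also takes in reads from exons shared with PABPN1. How many readthrough counts came from BCL2L2 transcripts cannot be told from counts per gene.

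**Figure D3:**
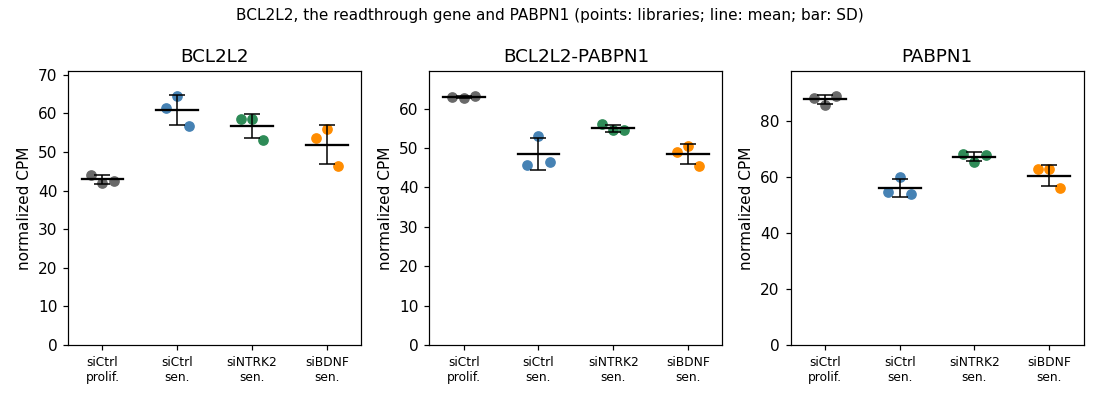
Normalized CPM (vertical axes, from 0) of BCL2L2, the readthrough gene BCL2L2-PABPN1 and PABPN1 in each library, with group means as lines and SD as bars. BCL2L2 is lowest in proliferating cells at 42.0 to 44.1 CPM, whereas the readthrough gene and PABPN1 are highest there.

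With siNTRK2 none of the 5 members passed the edgeR test, against 21.1% of all genes tested. None had an unadjusted p under 0.05 either, and DESeq2's Wald test also called 0. The 95% intervals of the differences were -0.18 to 0.01 for BCL2L1, -0.05 to 0.14 for MCL1, -0.23 to 0.03 for BCL2L2 and -0.43 to 0.37 for BCL2. Silencing BDNF changed 2 of 5, MCL1 upward and BCL2L2 downward, against 20.5% of all genes (10.3% higher, 10.2% lower). Of the genes called with siBDNF, 50.5% were higher, and 69.3% were with library totals alone.

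The direct comparison of the siRNAs called 2 of 5 members, against 16.7% of genes (8.84% higher and 7.86% lower with siNTRK2). MCL1 was lower with siNTRK2 than with siBDNF by a log2 value of -0.41 (SE 0.0443, adjusted p = 2.01e-07, edgeR). BCL2L1 was lower by -0.15 (SE 0.0456, adjusted p = 0.0279, edgeR), a call that was lost without any single library of either group (adjusted p from 0.0537 to 0.153). BCL2L2 differed by 0.13 (interval -0.0039 to 0.263, adjusted p = 0.187, edgeR), so its smaller decrease with siNTRK2 than with siBDNF is not a tested difference. Genes higher with siNTRK2 were 52.9% of those called, and 37.7% with library totals alone. With both siRNA groups pooled against siCtrl, MCL1 was higher by 0.25 and BCL2L2 was lower by -0.17 (adjusted p = 3.61e-05 and 0.0312, edgeR), though the BCL2L2 libraries overlapped. In that pooled comparison 21.7% of genes passed.

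**Figure D4:**
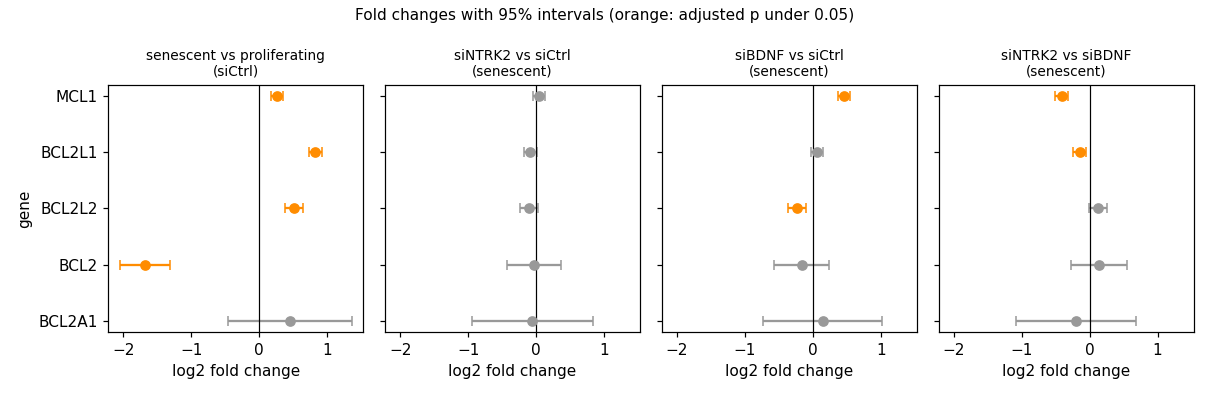
Log2 fold change (horizontal axis) of each member in the 4 comparisons, with 95% intervals, in orange where the adjusted p was under 0.05. Senescence moves BCL2 down by 1.68 and the other called members up, siNTRK2 moves none past the threshold, and siBDNF moves MCL1 up and BCL2L2 down.

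The levels give an order for each member. For MCL1 it ran from proliferating cells through senescent cells with siCtrl and with siNTRK2 to siBDNF, and of these neighbours siCtrl and siNTRK2 did not differ by the test, although their libraries did not overlap. For BCL2L1 it was proliferating, siNTRK2, siCtrl and siBDNF, with siCtrl not separated from either neighbour by the test. For BCL2L2 it was proliferating, siBDNF, siNTRK2 and siCtrl. All 3 senescent groups stood above proliferating cells (log2 differences of 0.27, 0.40 and 0.51), and of the senescent neighbours neither siBDNF with siNTRK2 nor siNTRK2 with siCtrl differed by the test. For BCL2 proliferating cells were highest, and the senescent groups were not separated by the test. Differences from proliferating cells were -1.72 for BCL2 with siNTRK2 and -1.85 with siBDNF (adjusted p = 1.32e-08 and 3.61e-09, edgeR). These comparisons share the proliferating libraries, and 55.0% and 58.7% of all genes passed in them.

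Ratios between members within a library do not depend on how libraries are scaled. The log2 ratio of BCL2L2 to MCL1 counts was -2.27, -2.34 and -2.17 in proliferating libraries, -2.01, -1.93 and -2.12 in senescent ones with siCtrl, -2.09, -2.11 and -2.30 with siNTRK2 and -2.65, -2.58 and -2.90 with siBDNF. The siBDNF libraries were lowest throughout, 0.69 below siCtrl. With 3 libraries against 3 an exact two-sided permutation test cannot go below p = 0.1, which this ratio reached, and its adjusted p over 16 ratio tests was 0.267. BCL2L2 to BCL2L1 was also lower with siBDNF than with siCtrl in every library, by 0.29, and lower in senescence than in proliferation by 0.32, each at the exact p of 0.1. To MCL1 it was 0.24 higher in senescence at the same exact p. With the BCL2L2-PABPN1 counts added to BCL2L2, the senescence difference went from -0.32 to -0.78 against BCL2L1 and from 0.24 to -0.22 against MCL1, a change of sign. The ratio of BCL2L2 to BCL2 was 2.17 higher in senescent cells, again with no overlap and an exact p of 0.1. None of the 16 passed after adjustment.

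With TMM scaling no pore-forming effector gene was called higher in senescence, where BCL2L1, BCL2L2 and MCL1 were. Relative to ACTB mRNA the BAX and BOK differences turned positive, as given below. BAX and BOK mRNAs fell in senescence, by 0.26 and 0.48 on the log2 scale (adjusted p = 5.66e-05 and 1.56e-07, edgeR), and BAK1 had a difference of 0.09 that did not pass, so 2 of 3 fell against 28.3% of all genes tested. The median over the 3 was -0.26, against 0.02 over all genes tested. Of the effectors BOK fell with siNTRK2, by 0.17 (adjusted p = 0.0482, edgeR), or 1 of 3. Among the 21518 genes tested, 2158 were lower with siNTRK2, and 21.1% were called in either direction. With siBDNF edgeR called 0 of 3, DESeq2 called 0, and 0 had an unadjusted p under 0.05.

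BH3-only genes encode the proteins that fill the groove of the survival members. In senescence 5 of the 7 tested rose and none fell, where 29.8% of all genes rose and 58.1% were called in either direction, with a median log2 fold change of 0.36 against 0.02 over all genes. Among these 5, HRK had 0 counts in every proliferating library. It was tested only through its senescent libraries and could only be called higher, so its call adds no support to the count or the median. BIK was not tested, with at most 7 counts. BCL2L11, which encodes BIM and binds all survival members, went from 1.08, 1.20 and 1.27 CPM to 3.10, 2.62 and 2.44 CPM, up by 1.21 on the log2 scale (SE 0.169, adjusted p = 1.10e-06, edgeR). BMF went from 2.80 ± 0.563 to 7.05 ± 0.923 CPM (SD, n = 3), a log2 fold change of 1.31 (adjusted p = 4.12e-09, edgeR). PMAIP1, which encodes NOXA, a binder of MCL-1 and BFL-1, rose by 0.36, and BAD rose by 0.16 (adjusted p = 1.61e-05 and 0.0126, edgeR). HRK had 0 counts in each proliferating library and 20, 10 and 14 in senescent ones with siCtrl, at least 4.34-fold higher against a floor of 3 counts per library (adjusted p = 1.37e-05, edgeR). Some marker genes of other cell types also went from 0 counts to a few there, such as LYZ (7 to 20 counts) and CDH5 (7 to 12 counts). Whether HRK differs from such genes was not tested. BBC3, encoding PUMA, and BID did not pass, at 0.10 and 0.11.

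Of the 7 BH3-only genes tested, 3 differed between the siRNAs, against 16.7% of all genes. With siNTRK2, PMAIP1 fell by 0.41 and BAD by 0.18 (adjusted p = 2.30e-05 and 0.0188, edgeR). That was 2 of 7 tested, with no gene higher. Of the 21518 genes tested, 2158 were lower and 2390 higher with siNTRK2, or 21.1% in either direction. With siBDNF 3 of 7 rose and none fell, against 10.3% of all genes higher: BCL2L11 by 0.51, BMF by 0.48 and BBC3 by 0.28 (adjusted p = 0.0168, 0.00399 and 0.0436, edgeR). For BBC3 the study's RT-qPCR, relative to ACTB mRNA, showed no effect of silencing TrkB or BDNF. BCL2L11 measured 2.18, 2.68 and 2.01 CPM with siNTRK2 and 3.57, 3.89 and 4.07 CPM with siBDNF, with no overlap. In the direct comparison BCL2L11, BMF and PMAIP1 were each lower with siNTRK2, by log2 fold changes of -0.76, -0.38 and -0.29 (adjusted p = 0.000919, 0.0263 and 0.00111, edgeR). The median over the 7 genes was 0.01 with siNTRK2 and 0.28 with siBDNF, against medians of -0.00 and 0.00 over all genes.

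Genes that set the lifetime of the short-lived MCL-1 protein were followed as a list. It held the ubiquitin ligase genes HUWE1, FBXW7, BTRC, MARCH5 and TRIM17 and the deubiquitinase gene USP9X. In senescence 2 of 6 rose, near the 29.8% of all genes, HUWE1 by 0.34 and BTRC by 0.93 (adjusted p = 4.37e-06 and 2.86e-13, edgeR). With siBDNF 4 of 6 rose, against 10.3% of all genes. HUWE1 rose by 0.49, FBXW7 by 0.30, USP9X by 0.23 and BTRC by 0.17 (adjusted p = 1.67e-07, 0.0110, 0.000789 and 0.0252, edgeR). With siNTRK2 HUWE1 alone of the 6 passed, at 0.32 (adjusted p = 5.81e-05, edgeR). Higher with siNTRK2 were 2390 of the 21518 genes tested, and 21.1% were called in either direction. HUWE1 measured 118 ± 4.33 CPM in proliferating cells and 149 ± 8.70, 186 ± 9.63 and 209 ± 9.16 CPM (SD, n = 3 each) with siCtrl, siNTRK2 and siBDNF. These ligases mark MCL-1 for breakdown and USP9X protects it. The list's median was 0.24 in senescence, 0.13 with siNTRK2 and 0.20 with siBDNF. Protein levels were not measured in these files.

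The apoptosome step lies downstream of the mitochondrial pore. In senescence CASP9 and HTRA2 rose by 0.51 and 0.39 (adjusted p = 4.96e-05 and 3.25e-06, edgeR). APAF1, the apoptosome scaffold, fell by 0.51 (adjusted p = 3.77e-07, edgeR), and CYCS, DIABLO and XIAP did not pass. With siNTRK2 XIAP, a caspase inhibitor gene, rose by 0.24 and CASP9 fell by 0.32 (adjusted p = 0.00659 and 0.0134, edgeR). With siBDNF APAF1 rose by 0.38 and XIAP by 0.36 (adjusted p = 0.000186 and 0.000179, edgeR). Of the remaining BCL2-like genes BCL2L12 fell by 0.52 and BCL2L13 rose by 0.17 in senescence (adjusted p = 1.97e-05 and 0.00517, edgeR). BCL2L13 fell by 0.17 with siBDNF (adjusted p = 0.0206, edgeR), and BCL2L10, BCL2L14 and BCL2L15 had too few counts to test.

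**Figure D5:**
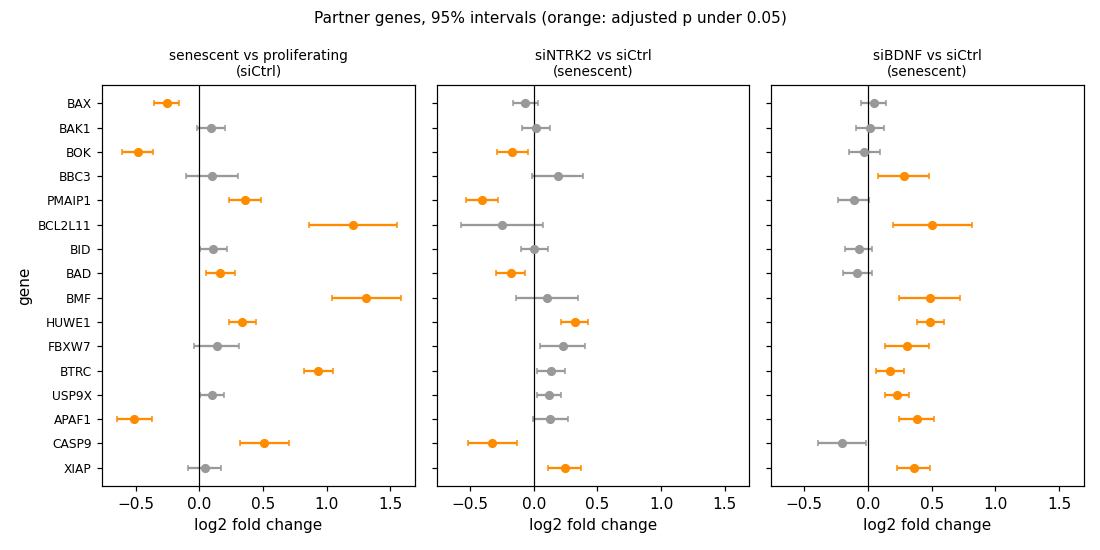
Log2 fold change (horizontal axis, the same in all panels) of effector, BH3-only, MCL1-turnover and apoptosome genes with 95% intervals, in orange where the adjusted p was under 0.05. BCL2L11 and BMF rise in senescence by 1.21 and 1.31 and rise further with siBDNF, and PMAIP1 falls with siNTRK2.

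Directions of small changes rest on the scaling. In senescent cells ACTB mRNA fell by 0.54 on the log2 scale, and relative to it the median of all genes was 0.57 higher than in proliferating cells. On that scale 90.9% of the genes called in senescence were higher, against 51.3% with TMM scaling, 82.3% against 52.6% with siNTRK2, 97.6% against 50.5% with siBDNF and 9.17% against 52.9% between the siRNAs. BAX turned to 0.29, BOK to 0.06, BCL2L12 to 0.03 and APAF1 to 0.03 in senescence, and BCL2L13 to 0.10 with siBDNF. The 4 called members kept their directions in senescence, with BCL2 at -1.14.

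For each member the 3 tested genes with the most similar profile over the 12 libraries were found by the Pearson correlation of log2 CPM, as a description. For BCL2 they were AASS (r = 0.99), CENPM (0.99) and SIX4 (0.98). For BCL2L1 they were SMIM3, ENSG00000269636 and BLCAP, each at 0.997, and for MCL1 TIPARP, SLC26A2 and HMGA2, each at 0.98. BCL2L2 had less close matches in NPM2 (0.95), GSG1 (0.95) and GNAL (0.94), as had BCL2A1 in KPNA6 (0.88), ENSG00000227050 (0.87) and PILRA (0.87). Between members r was -0.98 for BCL2 with BCL2L1 and 0.32 for BCL2L2 with MCL1. The 12 points fall into 4 groups and the libraries share their scaling.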

How the data were processed

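The members and the gene lists were chosen with earlier results of these data known. Per the labels and the study's methods, RNA (125 ng) was made into stranded TruSeq mRNA libraries and sequenced as read pairs. The submitters' processing notes name bcl2fastq 2.20.0.422, Cutadapt, STAR 2.4.0j and featureCounts 1.6.4 with hg19 (GRCh37). The deposited values are the authors' raw counts per Ensembl gene, with 1 table per library. Whether counting used strand, and how reads in overlapping genes were assigned, is not given in the sources used here, so overlapping and antisense genes are uncertain.

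The counts were tested with edgeR 4.0.16 under R 4.3.3 (TMM, filterByExpr over 4 groups, quasi-likelihood test, 1 term per group, all 12 libraries, Benjamini-Hochberg over 21518 genes, called at an adjusted p under 0.05). Standard errors are the log2 fold change over the square root of F. DESeq2, the study's own tool, served as an alternative at version 1.42.0. Symbols were paired to 55538 of 57773 identifiers, and exon lengths and overlaps came from GENCODE v44 on GRCh37. The study's methods name a different annotation release, from Ensembl, so the exon models behind the counts may differ. TPM serve to compare genes within a library. Ratios of members (0.5 added to counts) were tested by exact permutation. Named genes were the 5 members, genes overlapping them, the fixed lists and the 3 most correlated genes per member (log2 CPM with a prior count of 2). The counts over the whole apoptosome list and some of its genes are not reported here. PECAM1 had no match. Endothelial markers (3 matched) and the 4 neuron markers each summed to at most 1.09 TPM in any library. Labels do not say whether replicates were separate cultures. The study's reporting summary states in general that experiments were repeated independently at least 3 times, with the groups of each in vitro experiment kept together. It does not name these libraries, so p-values measure the spread between libraries, which may be technical. The limit of 3 counts, 0.0427 to 0.0916 CPM, covers counting error only. Replicates of a group were never identical (chi-square per gene 3.80 to 12.9). Same-numbered libraries did not deviate together (mean correlation 0.00184 over 18 pairs). The scripts were tested on simulated data.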

Additional observations from a re-analysis of the deposited data

Results flagged for a closer look

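The effects of siNTRK2 and siBDNF differed by the test of the difference itself for 2 of 5 members of the family and for 5 genes of the partner lists, given here as the log2 fold change of siNTRK2 against siBDNF in senescent cells from edgeR's quasi-likelihood fit. MCL1 differed by -0.41, with all siNTRK2 libraries (249.6 to 262 CPM) below all siBDNF libraries (334 to 346 CPM). BCL2L1 differed by -0.15, and this call did not survive leaving out any single library of these groups. Among the BH3-only genes BCL2L11 differed by -0.76, BMF by -0.38 and PMAIP1 by -0.29. HUWE1 differed by -0.17 and APAF1 by -0.25. All 7 were lower with siNTRK2, in a comparison where 7.86% of all genes tested were lower and 8.84% were higher. Called were 3 of 7 BH3-only genes and 1 of 6 MCL1 turnover genes, against 16.7% of all genes, and the number of partner genes is not read as a result about the lists. CD68 differed between the same libraries by -1.21, and its part in these differences was not tested. Groups of 3 libraries are too small for a test of single outlying libraries.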

How the results depend on the processing

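Of the values that answer a comparison, the senescence changes of BCL2, BCL2L1 and MCL1, and the siBDNF and siNTRK2-against-siBDNF differences of MCL1, kept their direction and their side of the threshold under every alternative run (MCL1 with siBDNF 0.44 to 0.72). With library totals only, the siBDNF difference of BCL2L1 was 0.12 and that of BCL2L2 -0.17, and relative to ACTB mRNA they were 0.33 and 0.033, the latter a change of sign. The ACTB scaling shifted the median of all genes by 0.27 with siBDNF by construction, and the genes called there numbered 8367 in place of 4412. Summing BCL2L2 with BCL2L2-PABPN1 gave 0.046 in senescence and -0.12 with siBDNF, and moved ratios to BCL2 from 2.17 to 1.71 (senescence), to BCL2L1 from -0.32 to -0.78 (senescence) and from -0.019 to 0.12 (siNTRK2), and to MCL1 from 0.24 to -0.22 (senescence) and from -0.15 to -0.013 (siNTRK2). The signs changed for BCL2L1 with siNTRK2 and for MCL1 in senescence. The sum adds other counts to BCL2L2, and apart from that the cause was not tested. Leaving out 1 library at a time gave -0.29 to -0.15 for BCL2L2 with siBDNF and -0.15 to -0.12 for BCL2L1 between the siRNAs, with 1 to 2 members called in each comparison. With the replicate number as a block, BCL2L2 with siBDNF was -0.23 (adjusted p = 0.00340, edgeR), no member's call changed and the MCL1 turnover genes called higher with siNTRK2 went from 1 to 2. The numbers gave no sign of pairing. DESeq2 gave no adjusted p for BCL2A1 with siBDNF. The siBDNF replicate 1 library is the shallowest at 31567912 counts, and BCL2A1 and BCL2 are limited by depth.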
